A study of Mus musculus with 17 samples.

Results

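NF-κB is a family of transcription factors that switch on inflammatory genes. Here 40 genes of this pathway, listed by symbol, were followed through 17 lung libraries of 5 groups of mice. The list was made with earlier results of these data known, so it was not blind to them. They comprised 5 NF-κB subunits, 5 IκB proteins, 6 kinases and kinase-complex genes, 6 further feedback regulators, 8 adaptors, 4 adhesion molecules and 6 other target genes, out of 24327 genes kept in each table. All 40 were listed in both tables.

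NF-κB dimers are held inactive in the cytoplasm by IκB proteins. Signals from receptors of the TNF, interleukin-1 and Toll-like families pass through adaptors to the IκB kinase complex, which marks IκB for breakdown and frees the dimers to enter the nucleus. Many of the genes then transcribed encode brakes on the same pathway, such as IκBα and A20, and others attract and hold white blood cells. Receptors for interleukin-18 use the adaptor MyD88, which they share with Toll-like and interleukin-1 receptors.

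The first experiment compared mice with the genotype LysMcre;Nlrp3A350V (the Nlrp3 mutant, 3 libraries) with control mice (3 libraries). Inflammasomes with NLRP3 as their sensor let interleukin-1β and interleukin-18 mature. A350V is an overactive form of it, and LysM-cre is a driver active in myeloid cells. The label names the driver alone and does not state which lung cells carried the active mutation. The second experiment added the interleukin-18 receptor gene Il18r1, spelled Il181r in 2 of the labels. It held LysMcre;Nlrp3A350V;Il181r-/- mice (the Il18r1 null mutant, 4 libraries), LysMcre;Nlrp3A350V;Il181r+/- mice (the Il18r1 het mutant, 3 libraries) and mice labelled Il18r1 control (4 libraries), whose Nlrp3 and Il18r1 alleles are not spelled out. By the series title, the study asked how an overactive inflammasome disturbs the formation of the gas exchange surface through NLRP3, interleukin-18 and TNF. The labels give no age, sex, litter or batch. Nor do they state that each library is its own animal, and the p-values below therefore reflect the scatter of these libraries alone, which may be technical.

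All libraries were bulk RNA-seq of homogenized lung, given as FPKM, a level corrected for the length of the gene and the size of the library. Totals of reads are unknown here. Relative depth, estimated from ratios of low values, ran from 0.790 to 1 times that of control library 1 in the first experiment and from 0.753 to 1.15 times that of Il18r1 control library 1 in the second, and from 13147 to 13450 genes reached 1 FPKM per library. Nlrp3 had 2.73 to 3.14 FPKM in the Nlrp3 mutant and 0.973 to 1.39 FPKM in control. Il18r1 had 6.98 to 9.00 FPKM in the Il18r1 null mutant, 29.9 to 31.2 FPKM in the het mutant and 13.4 to 15.0 FPKM in Il18r1 control; which exons the null allele lacks is not given in the sources used here. Epithelial markers of lung were abundant in all groups. Xist, the RNA of the inactive X chromosome, had 37.7 to 40.3 FPKM in the Nlrp3 mutant, 42.9 to 45.8 FPKM in the het mutant, and 69.2 and 73.0 FPKM in null mutant libraries 2 and 4. It was at most 0.0426 FPKM in the other null mutant libraries and in all controls, which expressed Ddx3y of the Y chromosome instead. Sex and genotype therefore cannot be told apart in the Nlrp3 mutant or in the het mutant against their controls, and the null mutant was mixed.

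Genes were tested with limma on log2(FPKM + 1), with Benjamini-Hochberg adjustment over all genes and a threshold of 0.05. On this scale the change of low genes is understated. In the Nlrp3 mutant against control, 23 of 38 tested members were higher and 1 was lower, where 55.6% of all 13549 genes tested passed, 28.0% higher and 27.6% lower. The members' median log2 fold change was 0.41, against 0.0023 over all genes. In the het mutant against Il18r1 control, 30 of 39 members were higher and none lower, where 56.2% of 13724 genes passed, 27.3% higher and 28.9% lower, and the members' median was 0.67. In the Il18r1 null mutant, 0 of 39 members passed against Il18r1 control by limma, where 1.97% of all genes passed. At an unadjusted p under 0.05 that count was 8 of 39, where it was 10.3% of all genes; in the authors' deposited table it was 4 of 40, and the members' median log2 fold change was 0.13. In the null mutant against the het mutant, 27 of 39 members were lower and 1 was higher, where 53.3% of all genes passed, 26.5% lower and 26.8% higher, and the members' median was −0.52. Groups did not overlap, with the Nlrp3 mutant higher, for 27 of 38 members and, with it lower, for 2, against 32.2% and 32.0% of all genes (64.2% together). In the het mutant against Il18r1 control these counts were 29 higher and 0 lower of 39, against 27.4% and 29.1% of all genes (56.5% together). In the null against the het mutant 25 members were lower and 1 was higher without overlap, against 26.0% and 26.2% of all genes (52.2% together). In the null mutant against Il18r1 control 6 members were higher and 1 was lower without overlap, against 5.06% and 3.4% of all genes (8.45% together). The het and null comparisons share libraries, so they are given side by side and not as independent results. When every library was scaled to the same total FPKM, which shifted the median of all genes by −0.15, −0.16 and 0.19 in the Nlrp3 mutant, the het mutant and the null-against-het comparison, the counts were 18 higher and 3 lower, 24 higher and 5 lower, and 7 higher and 21 lower. Under that scaling 59.1% of all genes passed in the Nlrp3 mutant (17.6% higher, 41.4% lower), 65.3% in the het mutant (18.1% higher, 47.2% lower) and 65.5% in the null against the het mutant (50.7% higher, 14.8% lower). With a term for Xist in the second experiment, 7 of the 30 het mutant calls did not pass (Nfkbiz, Traf6, Birc2, Ripk2, Irak2, Vcam1 and Cflar, limma adjusted p = 0.0614 to 0.362), nor did 3 of the 28 calls in the null against the het mutant (Nfkbiz, Traf2 and Traf6, 0.0752 to 0.204). Xist was on in all het libraries and off in all Il18r1 controls, so this term was set by the mixed null mutant libraries alone. How sex acts in the other groups cannot be seen from it, so calls that still passed are not shown to be free of sex. Selp in both experiments and Sele in the second reached the limit on low values only through the group where they were high, so their calls had to favour that group. Without them the counts were 22 higher and 1 lower of 37 in the Nlrp3 mutant, 28 higher of 37 in the het mutant and 25 lower and 1 higher of 37 in the null against the het mutant.

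**Figure D1:**
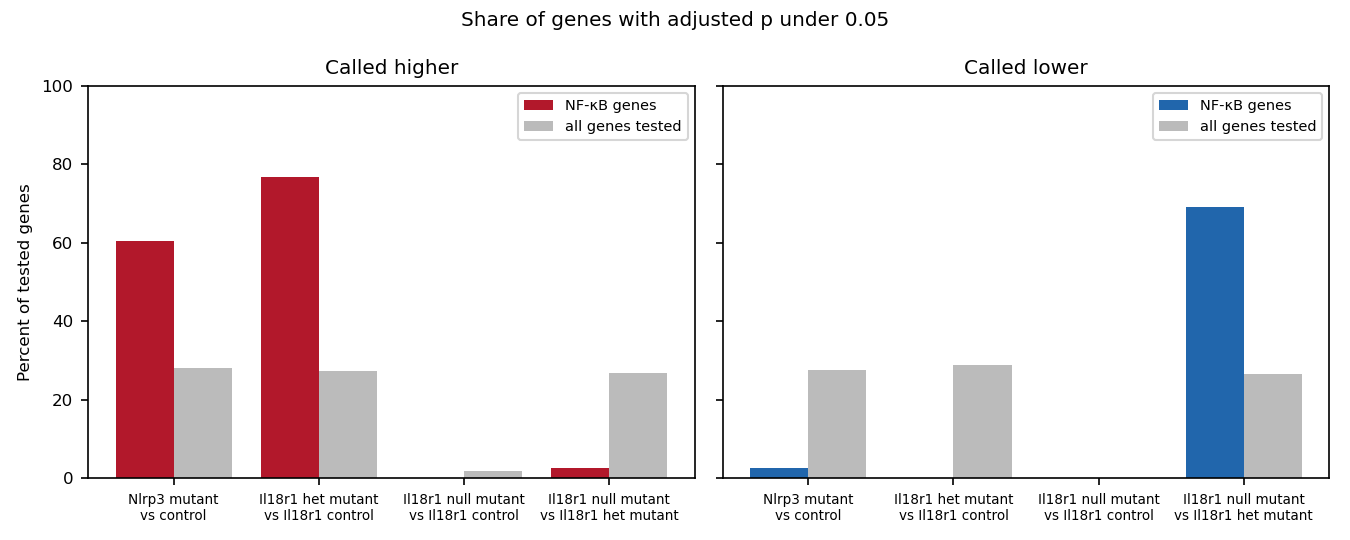
Percent of tested genes with an adjusted p under 0.05 in each comparison, called higher (left panel) or lower (right panel), for the NF-κB genes (coloured bars) and for all genes tested (grey bars). NF-κB genes were called higher in 60.5% and 76.9% of cases in the Nlrp3 and het mutants, and lower in 69.2% in the null mutant against the het mutant.

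In bulk tissue, more cells of a type and more RNA per cell cannot be told apart, and the cell makeup moved with these groups. The 11 measured neutrophil markers summed to 9550 to 15400 FPKM in the Nlrp3 mutant against 380 to 1350 FPKM in control, and 9 of 9 tested ones were higher. In the second experiment they summed to 2230 to 3100 FPKM in the null mutant, 10400 to 20000 FPKM in the het mutant and 229 to 337 FPKM in Il18r1 control. All 9 tested neutrophil markers were also higher in the null mutant against Il18r1 control, with a median log2 fold change of 2.84. The 10 macrophage markers summed to 440 to 514 FPKM in the Nlrp3 mutant and 190 to 221 FPKM in control. They summed to 247 to 342 FPKM in the null mutant, 645 to 798 FPKM in the het mutant and 209 to 229 FPKM in Il18r1 control. The 11 epithelial markers summed to 46300 to 51600 FPKM in the Nlrp3 mutant and 28500 to 33500 FPKM in control, with 10 of 11 higher. They summed to 23200 to 29300 FPKM in the null mutant, 44300 to 45700 FPKM in the het mutant and 28600 to 30200 FPKM in Il18r1 control, and all 11 were lower in the null against the het mutant. Mesenchymal markers summed to 1550 to 1580 FPKM in the Nlrp3 mutant and 2260 to 2400 FPKM in control, and to 2320 to 2600 FPKM in the null mutant, 1640 to 1830 FPKM in the het mutant and 2510 to 2550 FPKM in Il18r1 control. They were mixed, with 8 of 11 lower and 2 higher in the Nlrp3 mutant. Monocyte markers were mixed too, with 4 of 9 higher and 3 lower there. They summed to 536 to 616 FPKM in the Nlrp3 mutant and 505 to 519 FPKM in control. Lymphocyte markers summed to 4.67 to 7.88 FPKM in the Nlrp3 mutant and 18.6 to 25.9 FPKM in control. The part of these cells in the results on NF-κB genes was not tested.

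Of the 5 subunit genes, 1 rose in the Nlrp3 mutant and 2 in the het mutant, and these 2 fell in the null against the het mutant. Rela, the p65 subunit of the classical dimer, had 35.1, 33.5 and 32.9 FPKM in the Nlrp3 mutant and 29.7, 31.9 and 33.3 FPKM in control (log2 fold change 0.096, SE 0.058, limma adjusted p = 0.197). It had 34.2, 32.9, 33.6 and 31.4 FPKM in the null mutant, 34.6, 34.4 and 33.3 FPKM in the het mutant and 33.9, 32.6, 31.1 and 36.3 FPKM in Il18r1 control. The groups overlapped in each comparison. At equal total FPKM the log2 fold change of Rela was −0.065 in the Nlrp3 mutant, and it was −0.13 in the het mutant against Il18r1 control and 0.16 in the null against the het mutant, the last 2 passing the limma threshold (adjusted p = 0.0441 and 0.019). Nfkb1, which encodes the p105 precursor of p50, had 25.8, 21.8 and 23.4 FPKM in the Nlrp3 mutant and 25.2, 24.7 and 25.2 FPKM in control. Its levels were 25.5, 25.4, 26.4 and 24.9 FPKM in the null mutant, 22.8, 25.0 and 23.6 FPKM in the het mutant and 26.6, 24.2, 24.4 and 27.6 FPKM in Il18r1 control. As deposited, no comparison of Nfkb1 passed, with log2 fold changes from −0.1 to 0.097. At equal total FPKM its log2 fold change was −0.24 in the Nlrp3 mutant, −0.26 in the het mutant against Il18r1 control and 0.3 in the null against the het mutant, and all of these passed (limma adjusted p = 0.00833, 0.00106 and 4.0e-04). Rel, the c-Rel subunit of white blood cells, was the scarcest of the 5 and had 1.81, 1.61 and 1.83 FPKM in the Nlrp3 mutant and 3.01, 2.48 and 1.87 FPKM in control. The 3 mutant libraries lay below all 3 controls, but the difference missed the threshold (−0.32, SE 0.13, limma adjusted p = 0.0718); it passed at equal total FPKM (−0.43, adjusted p = 0.0242), without control library 3 (−0.44, adjusted p = 0.0142) and in the robust fit (−0.31, adjusted p = 0.0121). Rel had 2.87, 2.30, 2.72 and 3.09 FPKM in the null mutant, 2.81, 3.00 and 2.25 FPKM in the het mutant and 2.53, 2.14, 2.45 and 3.33 FPKM in Il18r1 control, and these groups overlapped.

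Relb and Nfkb2, whose products RelB and p100/p52 form the dimer of the alternative pathway, are themselves NF-κB targets. Relb had 17.3, 9.72 and 15.4 FPKM in the Nlrp3 mutant against 6.85, 6.55 and 8.68 FPKM in control, a log2 fold change of 0.83 (SE 0.19, limma adjusted p = 0.00771). In the second experiment it had 9.06, 8.69, 10.6 and 7.25 FPKM in the null mutant, 17.5, 20.4 and 20.6 FPKM in the het mutant and 8.17, 7.36, 7.26 and 8.35 FPKM in Il18r1 control. Every library of the Nlrp3 and het mutants lay above every control and null library of its own experiment, while the null mutant overlapped Il18r1 control. The log2 fold change was 1.22 (SE 0.1) in the het mutant against Il18r1 control and −1.06 (SE 0.1) in the null against the het mutant, with limma adjusted p = 1.5e-06 and 6.7e-06. Nfkb2 had 10.9, 7.04 and 8.96 FPKM in the Nlrp3 mutant and 6.83, 6.88 and 6.99 FPKM in control. All mutant libraries were above the controls, library 2 only just, and the test was not passed (0.32, SE 0.13, limma adjusted p = 0.072), but it was passed without that library (0.46, adjusted p = 0.005). Nfkb2 had 7.14, 6.24, 8.04 and 6.21 FPKM in the null mutant, 10.7, 13.4 and 12.1 FPKM in the het mutant and 6.56, 5.99, 5.75 and 6.21 FPKM in Il18r1 control. It rose in the het mutant (0.87, SE 0.092, limma adjusted p = 9.3e-06) and fell in the null against the het mutant (−0.72, SE 0.092, limma adjusted p = 4.7e-05).

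All 5 IκB family genes rose in the het mutant against Il18r1 control and all 5 fell in the null against the het mutant; 4 of 5 rose in the Nlrp3 mutant. Nfkbia, which encodes IκBα, the inhibitor that NF-κB resynthesises to end its own activity, had the highest level of the family. It had 221, 128 and 179 FPKM in the Nlrp3 mutant against 53.6, 54.0 and 64.6 FPKM in control, 3.07 times as high in the means. It had 58.2, 76.8, 80.0 and 58.5 FPKM in the null mutant, 245, 290.0 and 204 FPKM in the het mutant and 57.7, 52.5, 53.3 and 64.0 FPKM in Il18r1 control. The Nlrp3 and het mutants stood apart from their controls, and the null mutant overlapped Il18r1 control, with 2 of its libraries above it. The log2 fold change was 1.57 (SE 0.18) in the Nlrp3 mutant, 2.08 (SE 0.14) in the het mutant and −1.84 (SE 0.14) in the null against the het mutant, with limma adjusted p = 2.4e-04, 2.4e-07 and 1.1e-06. In the null mutant against Il18r1 control it was 0.25 (SE 0.13, limma adjusted p = 0.565).

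Bcl3 encodes an atypical IκB protein that works in the nucleus with p50 or p52. It had 10.7, 3.46 and 6.81 FPKM in the Nlrp3 mutant and 3.12, 3.34 and 3.98 FPKM in control, so that Nlrp3 mutant library 2 lay within the control range (0.73, SE 0.3, limma adjusted p = 0.0715). Without that library Bcl3 passed (1.1, limma adjusted p = 0.00188), as it did in the robust fit (0.83, adjusted p = 0.00524). It had 5.53, 5.40, 7.72 and 3.97 FPKM in the null mutant, 12.9, 15.6 and 12.5 FPKM in the het mutant and 4.08, 3.33, 3.06 and 4.02 FPKM in Il18r1 control. The het mutant lay above both other groups, and 3 of 4 null libraries lay above all controls. Its log2 fold change was 1.67 (SE 0.16, limma adjusted p = 3.9e-06) in the het mutant and −1.16 (SE 0.16, limma adjusted p = 7.8e-05) in the null against the het mutant. Nfkbiz, the nuclear IκBζ that helps switch on secondary response genes, had 33.7, 20.6 and 26.6 FPKM in the Nlrp3 mutant against 15.2, 15.1 and 15.6 FPKM in control (0.75, SE 0.15, limma adjusted p = 0.0036). In the second experiment its levels were 18, 33.2, 35.5 and 29.8 FPKM in the null mutant, 42.7, 47.0 and 35.4 FPKM in the het mutant and 18.8, 23.5, 22.6 and 28.4 FPKM in Il18r1 control. The null mutant overlapped both other groups. Its fall against the het mutant (−0.54, limma adjusted p = 0.0401) did not pass without null library 1 or 4, het library 1 or 2, or Il18r1 control library 2 or 3, with adjusted p from 0.0506 to 0.135 and a log2 fold change of −0.33 without null library 1. Its rise in the het mutant (0.82, limma adjusted p = 0.00438) became 0.52 (adjusted p = 0.242) with a term for Xist. Nfkbib and Nfkbie, which encode the cytoplasmic inhibitors IκBβ and IκBε, rose by 0.44 and 0.45 in the Nlrp3 mutant and by 0.83 and 1.06 in the het mutant on the log2 scale, and their log2 fold changes were −0.85 and −0.89 in the null against the het mutant.

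**Figure D2:**
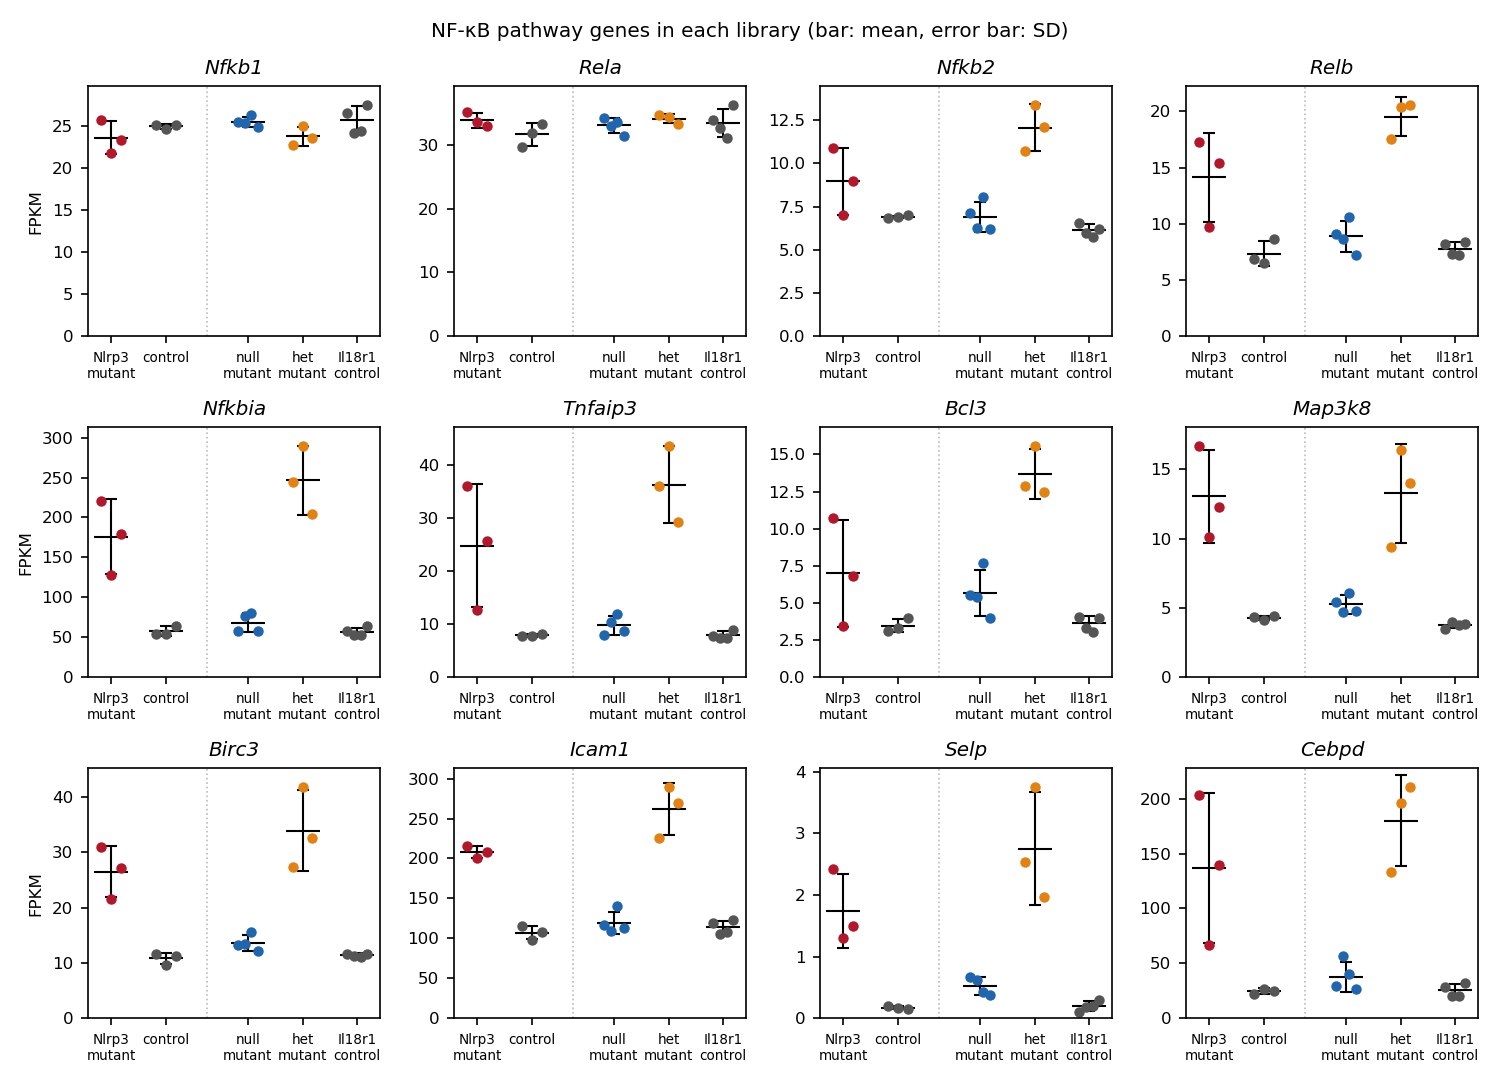
FPKM of 12 NF-κB pathway genes in each library (points), with the group mean (horizontal bar) and SD (error bar), on linear axes from 0; a dotted line parts the 2 experiments. Nfkb1 and Rela passed in no comparison of the values as deposited (both passed in some at equal total FPKM), while the other 10 genes had their highest group mean in the het mutant and a null mutant mean nearer to that of Il18r1 control.

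In the second experiment as deposited, the core IκB kinase complex and the kinases around it behaved differently. Genes of the core complex passed in no comparison there, while the kinases around it rose in the het mutant. The Nlrp3 mutant showed no such split, with calls in both sets. Ikbkb, the kinase that phosphorylates IκB in the classical pathway, passed in no comparison as deposited and had group means between 15.7 and 16.2 FPKM. Chuk and Ikbkg, the IKKα kinase and the NEMO scaffold of the same complex, were higher by 0.23 and 0.26 in log2 in the Nlrp3 mutant (limma adjusted p = 0.0404 and 0.0104) and passed in no other comparison. At equal total FPKM these became 0.073 and 0.11, and neither passed. Under that scaling Chuk was lower in the het mutant against Il18r1 control (−0.22, limma adjusted p = 0.0215) and higher in the null against the het mutant (0.29, adjusted p = 0.00408), and Ikbkg and Ikbkb were higher in the null against the het mutant (0.15 and 0.18, adjusted p = 0.0231 and 0.0109). The call of Chuk was also lost without any 1 of the 3 control libraries and without Nlrp3 mutant library 2 or 3, with limma adjusted p from 0.0644 to 0.102 and 0.14 as the log2 fold change without Nlrp3 mutant library 2. Map3k8, the kinase Tpl2, which is bound by p105 and leads to ERK, had 16.7, 10.1 and 12.3 FPKM in the Nlrp3 mutant against 4.32, 4.11 and 4.40 FPKM in control. It had 5.43, 4.68, 6.11 and 4.79 FPKM in the null mutant, 9.40, 16.4 and 14.0 FPKM in the het mutant and 3.47, 3.97, 3.77 and 3.86 FPKM in Il18r1 control. None of these groups overlapped, the null mutant lying between the other 2. The log2 fold change was 1.39 (SE 0.15) in the Nlrp3 mutant, 1.55 (SE 0.14) in the het mutant and −1.17 (SE 0.14) in the null against the het mutant, with limma adjusted p = 1.8e-04, 3.3e-06 and 3.9e-05. In the null mutant against Il18r1 control it was 0.39 (SE 0.13) and did not pass by limma (adjusted p = 0.267). Ikbke, the IKK-related kinase IKKε, was higher by 0.77 in the het mutant and had a log2 fold change of 0.28 in the Nlrp3 mutant that did not pass (limma adjusted p = 0.101) except without control library 3 (0.4, adjusted p = 0.0217) and in the robust fit. Map3k14, the kinase NIK of the alternative pathway, was higher by 0.35 in the het mutant and changed by −0.23 in the null against the het mutant, the second not passing without het library 3 (limma adjusted p = 0.0518) or at equal total FPKM.

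Of the 6 feedback regulators, 5 rose in the Nlrp3 mutant and in the het mutant and 5 fell in the null against the het mutant. Tnfaip3, the ubiquitin-editing enzyme A20 that shuts off signalling to the IκB kinases, had 35.9, 12.7 and 25.7 FPKM in the Nlrp3 mutant against 7.72, 7.74 and 8.24 FPKM in control. It had 7.98, 10.4, 12.0 and 8.75 FPKM in the null mutant, 35.9, 43.6 and 29.3 FPKM in the het mutant and 7.82, 7.41, 7.34 and 8.99 FPKM in Il18r1 control. The Nlrp3 and het mutants lay wholly above their controls, library 2 of the Nlrp3 mutant least so, and the null mutant overlapped Il18r1 control. The log2 fold change was 1.42 (SE 0.31) in the Nlrp3 mutant, 2.05 (SE 0.14) in the het mutant and −1.79 (SE 0.14) in the null against the het mutant, with limma adjusted p = 0.00524, 3.3e-07 and 1.7e-06. It was 0.27 (SE 0.13, limma adjusted p = 0.529) in the null mutant against Il18r1 control. Irak3, the kinase-like protein IRAK-M that restrains Toll-like and interleukin-1 receptor signalling, had 5.09, 3.09 and 4.67 FPKM in the Nlrp3 mutant against 2.16, 1.5 and 2.46 FPKM in control. It had 2.54, 2.00, 2.60 and 2.42 FPKM in the null mutant, 4.68, 7.28 and 5.28 FPKM in the het mutant and 1.47, 1.29, 1.43 and 1.76 FPKM in Il18r1 control. As for Map3k8, no groups overlapped and the null mutant lay in between. Irak3 rose by 0.79 and 1.42 in log2 in the Nlrp3 and het mutants, and its log2 fold change of 0.45 (SE 0.11) in the null mutant against Il18r1 control had a limma adjusted p of 0.0804.

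Zc3h12a, the RNase Regnase-1 that degrades cytokine transcripts, rose by 0.67 in the Nlrp3 mutant and 1.12 in the het mutant in log2, and its change in the null against the het mutant was −0.81. Tnip1 and Tnip2, ubiquitin-binding partners of A20, rose by 0.49 and 0.39 in the Nlrp3 mutant, by 0.87 and 0.54 in the het mutant, and changed by −0.85 and −0.5 in the null against the het mutant. The Nlrp3 mutant calls were the least firm of these: Tnip1 did not pass without control library 1 or 2 (limma adjusted p = 0.0731 and 0.0658), and Tnip2 did not pass without control library 1 or 2 or Nlrp3 mutant library 1 or 3 (0.0624 to 0.081) or at equal total FPKM (0.23, adjusted p = 0.0675). Cyld, a deubiquitinase that opposes the pathway, passed in no comparison of the main test and had group means between 7.5 and 9.36 FPKM. It passed in the Nlrp3 mutant without library 2 (0.21, limma adjusted p = 0.0355) and in the robust fit (0.2, adjusted p = 0.0054). At equal total FPKM it passed in the null against the het mutant (0.19, adjusted p = 0.0409).

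Since many of these regulators rose together, their promoter sequences were searched for the κB consensus, the family of 10-letter sequences that NF-κB dimers bind, on both strands. RefSeq promoter windows of GRCm38.p6, 250 bases before to 50 bases from the annotated start on, were at hand for 32 members; those named only are Nfkb1, Relb, Nfkbiz, Ikbkb, Map3k8, Ripk2, Vcam1 and Cebpd. A match lay in a window of 11 of the 32 members (34.4%) and of 9.55% of the 27025 genes in the table. Shown here are 4 regulators that rose in the het mutant and 2 members, Rel and Cyld, that hold a match and passed in no comparison of the main test. Both passed in some alternatives, as given above. Each sequence runs 5′ to 3′ along the gene with matching letters in capitals.
Nfkbia, chr12:55492598-55492897, minus strand: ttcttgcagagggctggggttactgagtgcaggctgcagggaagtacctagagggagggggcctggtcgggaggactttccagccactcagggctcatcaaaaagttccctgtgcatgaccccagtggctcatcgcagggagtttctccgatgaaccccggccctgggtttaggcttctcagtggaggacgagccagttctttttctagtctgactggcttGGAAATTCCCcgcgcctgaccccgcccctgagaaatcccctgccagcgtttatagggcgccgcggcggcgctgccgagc
Tnfaip3, chr10:19015361-19015660, minus strand: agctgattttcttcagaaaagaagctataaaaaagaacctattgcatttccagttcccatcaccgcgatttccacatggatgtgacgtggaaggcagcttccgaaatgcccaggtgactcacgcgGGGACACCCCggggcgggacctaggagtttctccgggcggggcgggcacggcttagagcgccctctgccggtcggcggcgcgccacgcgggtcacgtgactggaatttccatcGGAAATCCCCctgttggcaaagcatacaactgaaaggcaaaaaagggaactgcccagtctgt
Tnip1, chr11:54962891-54963190, minus strand: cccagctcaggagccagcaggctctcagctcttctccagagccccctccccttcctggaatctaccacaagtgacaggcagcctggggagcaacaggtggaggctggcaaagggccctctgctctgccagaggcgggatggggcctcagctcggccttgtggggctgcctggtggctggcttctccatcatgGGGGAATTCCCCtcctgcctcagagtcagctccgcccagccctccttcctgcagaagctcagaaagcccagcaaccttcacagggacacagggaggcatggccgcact
Nfkb2, chr19:46304487-46304786, plus strand: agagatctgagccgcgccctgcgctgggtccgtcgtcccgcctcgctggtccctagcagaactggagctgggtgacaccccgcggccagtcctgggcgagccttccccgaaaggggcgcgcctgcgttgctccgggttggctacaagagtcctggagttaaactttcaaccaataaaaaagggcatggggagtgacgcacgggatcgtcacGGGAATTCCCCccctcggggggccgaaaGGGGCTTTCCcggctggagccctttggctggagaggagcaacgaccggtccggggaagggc
Rel, chr11:23770920-23771219, minus strand: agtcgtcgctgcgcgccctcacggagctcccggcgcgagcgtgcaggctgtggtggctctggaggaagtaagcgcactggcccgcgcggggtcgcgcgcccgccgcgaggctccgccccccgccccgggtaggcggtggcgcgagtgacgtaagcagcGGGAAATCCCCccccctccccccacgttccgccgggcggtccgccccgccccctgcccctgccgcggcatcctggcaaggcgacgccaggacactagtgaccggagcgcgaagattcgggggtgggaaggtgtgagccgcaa
Cyld, chr8:88696778-88697077, plus strand: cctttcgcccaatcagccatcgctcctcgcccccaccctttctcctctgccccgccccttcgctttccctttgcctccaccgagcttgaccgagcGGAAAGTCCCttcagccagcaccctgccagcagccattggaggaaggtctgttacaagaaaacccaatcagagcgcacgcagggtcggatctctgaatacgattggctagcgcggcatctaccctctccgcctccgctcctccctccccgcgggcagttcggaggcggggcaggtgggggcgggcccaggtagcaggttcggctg
The match in Nfkbia was centred 24 bases before the start, and those in Tnfaip3 were centred 120 and 7 bases before it. In Tnip1 the capitals hold 3 overlapping matches, 51 to 53 bases before the start, on a palindromic core. The Nfkb2 window shown is 1 of 3 with matches for that gene, and the others overlap and share a match. Bcl3, Nfkbie, Traf3, Sod2 and Ccl20 also held a match. Of the 10 members with a match that were tested in the het mutant, 8 rose, with a median log2 fold change of 0.89. Of the 21 tested members with a window and no match, 16 rose, with a median of 0.54. Sele and Selp are among these 16, and the limit on low values fixed their direction. Over all genes, 27.3% were higher in the het mutant. In the Nlrp3 mutant 5 of 10 members with a match and 14 of 20 with a window and no match rose, where 28.0% of all genes were higher. The 14 include Selp, whose direction was fixed in the same way. A match describes the letters of the window and does not show binding, and windows of this length do not cover enhancers.

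**Figure D3:**
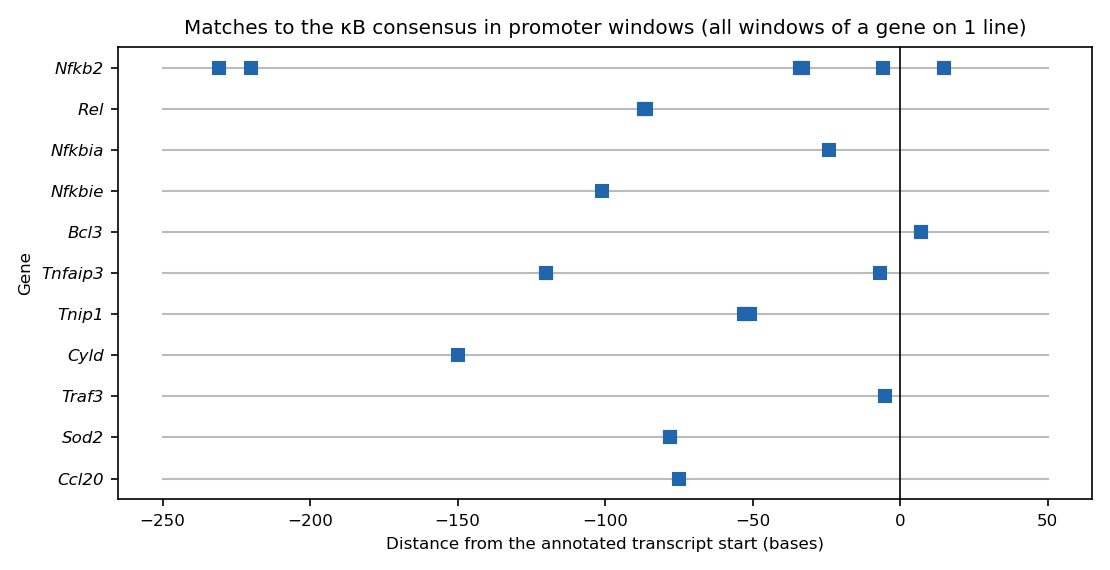
Centres of matches to the κB consensus (squares) in the promoter windows of the 11 members that hold one, with the distance from the annotated transcript start in bases on the horizontal axis and all windows of a gene drawn on 1 line. Most matches lie within 150 bases before the start, and Nfkb2 has matches in 3 windows. The Nfkb2 match drawn at 15 and at −220 bases is the same site, seen from overlapping windows.

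Of the 8 adaptors, 5 were higher and 1 lower in the Nlrp3 mutant, 6 were higher in the het mutant, and 5 were lower and 1 higher in the null against the het mutant. Birc3, the ubiquitin ligase cIAP2, had 30.9, 21.6 and 27.1 FPKM in the Nlrp3 mutant against 11.6, 9.68 and 11.2 FPKM in control. It had 13.2, 13.4, 15.6 and 12.2 FPKM in the null mutant, 27.3, 41.9 and 32.6 FPKM in the het mutant and 11.7, 11.3, 11.1 and 11.7 FPKM in Il18r1 control. All 4 null libraries lay above all Il18r1 controls and below the het mutant. Its log2 fold changes were 1.21 (SE 0.13) in the Nlrp3 mutant, 1.47 (SE 0.12) in the het mutant and −1.24 (SE 0.12) in the null against the het mutant, with limma adjusted p = 1.5e-04, 9.4e-07 and 5.1e-06. Birc2, the related ligase cIAP1, rose by 0.43 in the Nlrp3 mutant and 0.3 in the het mutant, the second becoming 0.14 (limma adjusted p = 0.131) at equal total FPKM.

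The TRAF genes encode adaptors and ubiquitin ligases that link receptors to kinases, and they did not move together. Traf1 rose in the Nlrp3 mutant (0.64, SE 0.15, limma adjusted p = 0.00788) and had a log2 fold change of −0.17 (SE 0.073, limma adjusted p = 0.0719) in the het mutant, where it passed as lower at equal total FPKM (−0.31, adjusted p = 0.00291) and without het library 1 (−0.22, adjusted p = 0.0303). Traf2 was the only member called lower in the Nlrp3 mutant, with 6.08, 6.73 and 6.49 FPKM against 8.68, 9.16 and 9.22 FPKM in control (−0.43, SE 0.067, limma adjusted p = 0.00103), groups that did not overlap. At equal total FPKM it was lower in the het mutant too (−0.25, limma adjusted p = 0.00679). As deposited, it was also the only member called higher in the null against the het mutant (0.17, limma adjusted p = 0.0408), a call lost without het library 2 (0.11), null library 1, 2 or 3, or Il18r1 control library 1 or 4, with adjusted p from 0.0515 to 0.172. Traf6, the ligase downstream of MyD88, rose by 0.27 in the Nlrp3 mutant and 0.2 in the het mutant. These calls were lost without control library 3 or Nlrp3 mutant library 2 or 3 (limma adjusted p = 0.0566 to 0.0703), and without het library 2 or 3 (0.0974 and 0.0501, with a log2 fold change of 0.13 without library 2). At equal total FPKM these 2 values were 0.11 and 0.043 and did not pass (adjusted p = 0.357 and 0.58). Traf3, which holds NIK in check, rose by 0.29 in the het mutant (0.14 at equal total FPKM, limma adjusted p = 0.0628) and changed by −0.24 in the null against the het mutant; Traf6 changed by −0.21 there. Without het library 2 neither of these last calls passed (limma adjusted p = 0.0501 and 0.0799), and at equal total FPKM they were −0.053 and −0.011. Irak2, a kinase of the MyD88 complex, rose by 0.35 in the Nlrp3 mutant and 0.2 in the het mutant and changed by −0.26 in the null against the het mutant. At equal total FPKM none of the 3 passed, and the het call was also lost without het library 1 or Il18r1 control library 2 or 3 (limma adjusted p = 0.0557 to 0.0968). Ripk2, the kinase that serves the NOD receptors, rose by 0.45 in the het mutant (0.39 with a term for Xist, limma adjusted p = 0.0614), had 0.29 (SE 0.08) in the null mutant against Il18r1 control with a limma adjusted p of 0.129, and −0.16 (SE 0.087) in the null against the het mutant with 0.139.

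Among the adhesion molecules, which help to catch white blood cells from the blood, Icam1 rose in the Nlrp3 and het mutants. Which lung cells held its RNA was not tested. Icam1, the ligand of leukocyte integrins, had 216, 200 and 208 FPKM in the Nlrp3 mutant against 115, 98.2 and 108 FPKM in control. It had 117, 109, 140.0 and 113 FPKM in the null mutant, 226, 290.0 and 269 FPKM in the het mutant and 119, 106, 108 and 123 FPKM in Il18r1 control. The Nlrp3 and het mutants were clear of their controls, and the null mutant overlapped Il18r1 control. The log2 fold change was 0.95 (SE 0.068) in the Nlrp3 mutant, 1.19 (SE 0.1) in the het mutant and −1.12 (SE 0.1) in the null against the het mutant, with limma adjusted p = 3.0e-05, 1.6e-06 and 3.8e-06. Vcam1, the ligand of integrin α4β1, had 42.4, 28.7 and 35.6 FPKM in the Nlrp3 mutant and 33.0, 32.2 and 39.5 FPKM in control and did not pass (limma adjusted p = 0.931). Its rise of 0.27 in the het mutant (limma adjusted p = 0.0332) was lost without het library 1 or 2 or Il18r1 control library 1 or 4 (0.0515 to 0.117) and, at 0.11, at equal total FPKM (0.33).

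Selp, P-selectin of endothelium and platelets, had 2.43, 1.30 and 1.5 FPKM in the Nlrp3 mutant against 0.197, 0.166 and 0.155 FPKM in control. It had 0.673, 0.618, 0.429 and 0.384 FPKM in the null mutant, 2.53, 3.76 and 1.97 FPKM in the het mutant and 0.0979, 0.186, 0.205 and 0.292 FPKM in Il18r1 control. No groups overlapped within an experiment, with the null mutant between the others. The log2 fold changes were 1.2 (SE 0.16) in the Nlrp3 mutant, 1.62 (SE 0.14) in the het mutant and −1.27 (SE 0.14) in the null against the het mutant, and with a pseudocount of 0.1 they were 2.71, 3.27 and −2.17. They are given without p-values, since only Nlrp3 mutant and het mutant libraries reached 1 FPKM, and Selp was not tested when 1 of these was left out. The 7 platelet markers summed to 266 to 276 FPKM in the Nlrp3 mutant against 50.4 to 70.9 FPKM in control. Their sums were 55.6 to 81.6 FPKM in the null mutant and 55.7 to 87.6 FPKM in Il18r1 control, which overlapped, unlike Selp. In het mutant libraries 1, 2 and 3 they were 240, 164 and 167 FPKM. Library 2 was thus the highest of these for Selp and the lowest for the platelet markers. Endothelial markers summed to 1380 to 1390 FPKM in the Nlrp3 mutant against 1590 to 1650 FPKM in control, with 5 of 11 lower and 2 higher. The part of these cells in Selp was not tested. Sele, E-selectin, which endothelium makes on activation, had 0.0132, 0.191, 0.297 and 0.102 FPKM in the null mutant, 2.31, 2.33 and 1.15 FPKM in the het mutant and 0.0303, 0.0293, 0.00822 and 0.176 FPKM in Il18r1 control. The het mutant stood apart (log2 fold change 1.44, SE 0.16), and the null mutant overlapped Il18r1 control and lay below the het mutant (−1.33, SE 0.16). Only the 3 het libraries reached 1 FPKM, so these values too are given without p-values. In the first experiment Sele was too low to be tested, with 0.870, 0.177 and 0.654 FPKM in the Nlrp3 mutant and 0.0215, 0.0495 and 0.0265 FPKM in control.

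Cebpd, a C/EBP transcription factor of the acute phase response, had the largest change of the tested members on the log2(FPKM + 1) scale in the Nlrp3 mutant, in the het mutant and, downward, in the null against the het mutant. By the ratio of means Selp (10.1 and 14.1 in the Nlrp3 and het mutants) exceeded Cebpd (5.5 and 7.06), as did Sele (17.4 and 31.7). In the authors' deposited table Sele and Selp also exceeded it in the het mutant, with log2 fold changes of 5.52 and 4.01 against 2.8. It had 203, 66.7 and 140.0 FPKM in the Nlrp3 mutant against 22.2, 26.9 and 25.3 FPKM in control. It had 29.2, 56.4, 40.2 and 26.3 FPKM in the null mutant, 133, 196 and 211 FPKM in the het mutant and 28.5, 20.6, 20.6 and 32.6 FPKM in Il18r1 control. The Nlrp3 mutant libraries differed widely but all exceeded the controls, and the null mutant overlapped Il18r1 control. The log2 fold change was 2.28 (SE 0.34) in the Nlrp3 mutant, 2.77 (SE 0.25) in the het mutant and −2.25 (SE 0.25) in the null against the het mutant, with limma adjusted p = 9.0e-04, 3.0e-06 and 2.0e-05. Cebpb, its relative, rose by 0.63 in the het mutant and missed the threshold in the Nlrp3 mutant, with 58.8 ± 9.52 FPKM against 50.8 ± 5.82 FPKM in control (SD, n = 3 each), a difference that passed without Nlrp3 mutant library 2 (0.34, limma adjusted p = 0.0201). Sod2, the mitochondrial superoxide dismutase, rose by 0.55 in the Nlrp3 mutant and by 0.91 in the het mutant and changed by −0.77 in the null against the het mutant. Bcl2a1b, an anti-apoptotic gene, rose by 0.68 and 0.67 and changed by −0.52, values that are uncertain because near-identical copies of this gene share reads. Cflar, the caspase-8 inhibitor c-FLIP, rose by 0.28 in the het mutant and passed in no other comparison of the main test. At equal total FPKM that value was 0.12 and did not pass. In the Nlrp3 mutant Cflar passed in the robust fit (0.11, limma adjusted p = 0.0368) and without control library 1 (0.17, 0.0473). In the null against the het mutant it passed with replicate numbers as a block (−0.18, adjusted p = 0.043) and without Il18r1 control library 4 (−0.15, 0.0451). Ccl20, a chemokine for cells with the receptor CCR6, was too low to be tested, with 0.710, 2.26 and 2.28 FPKM in the Nlrp3 mutant against 0.299, 0.115 and 0.249 FPKM in control. It had 0.122, 0.954, 5.54 and 0.135 FPKM in the null mutant, 0.868, 1.56 and 0.741 FPKM in the het mutant and 0.138, 0.136, 0.0386 and 0.125 FPKM in Il18r1 control. The Nlrp3 and het mutants lay above their controls, and 1 null library held the highest value of all 17.

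**Figure D4:**
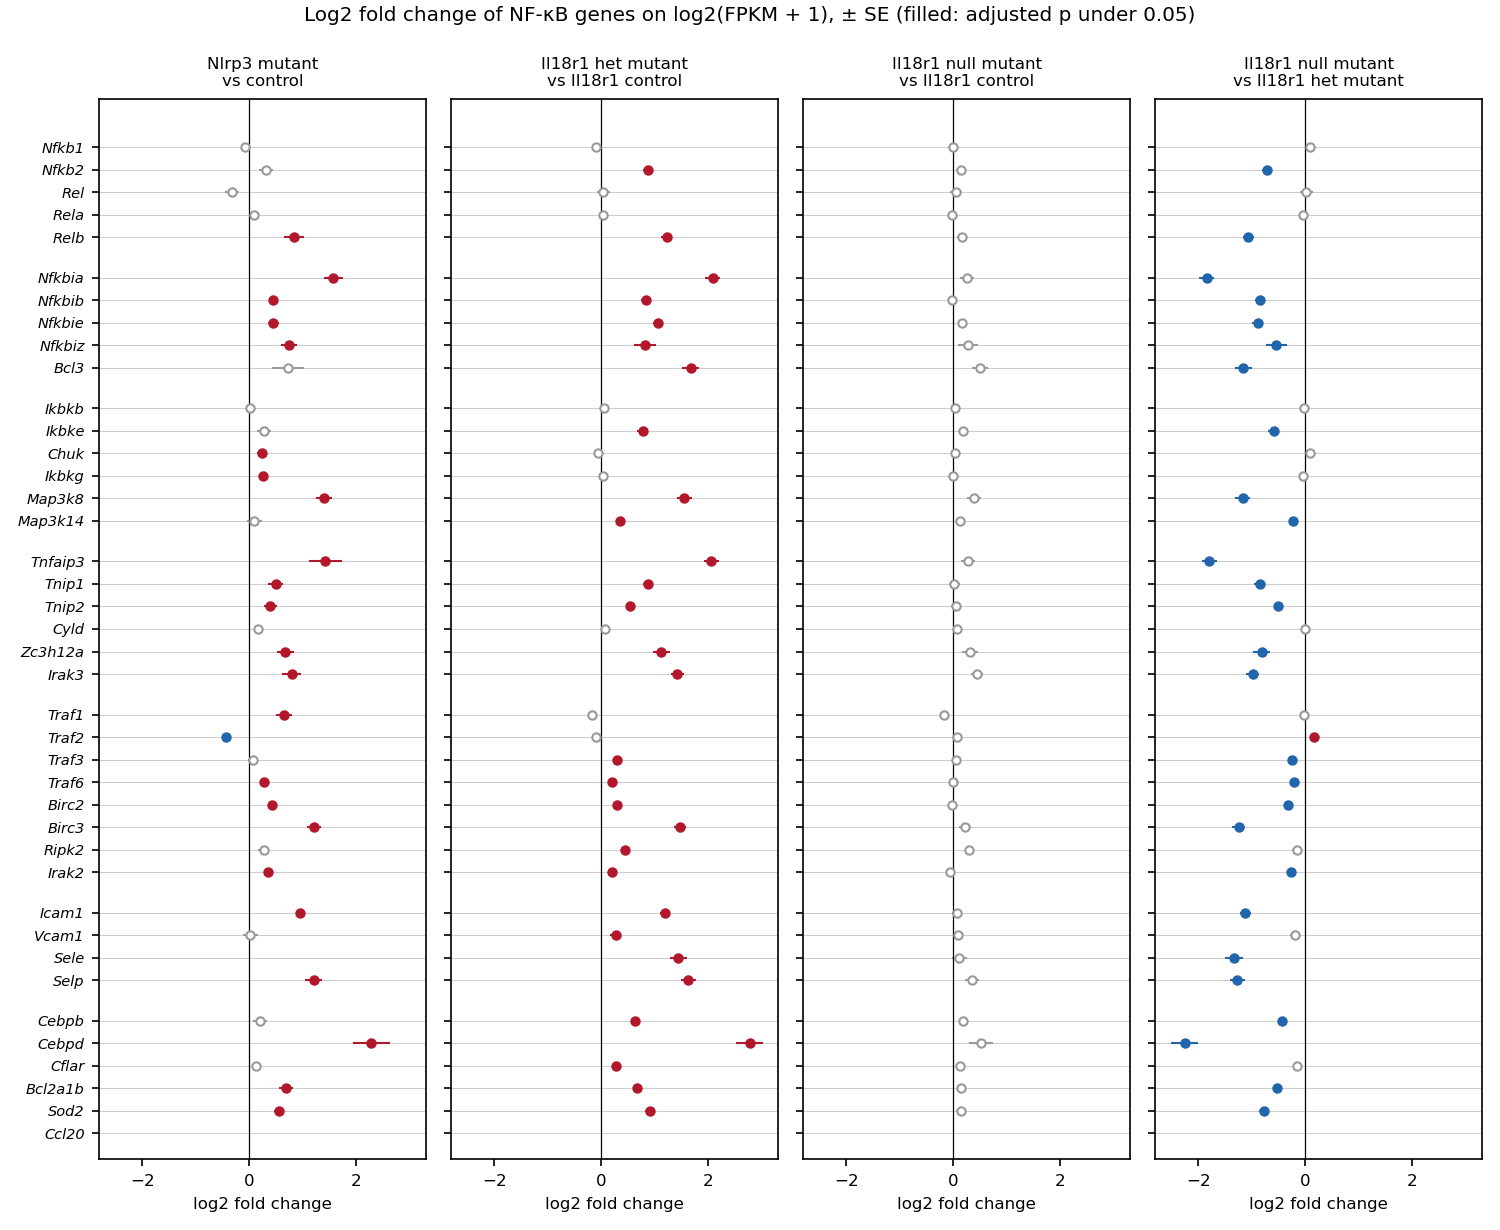
Log2 fold change on the log2(FPKM + 1) scale (points) with its SE (bars) for the members tested in each of the 4 comparisons, in blocks by role from subunits at the top to other targets at the bottom. Filled points passed the threshold, red upward and blue downward; the third panel, the null mutant against Il18r1 control, has none. Ccl20 was not tested, nor was Sele in the first panel.

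The 2 experiments share no library. Of the 38 members tested in both, 20 were called higher in the Nlrp3 mutant and in the het mutant. None was called lower in both or in opposite directions. Of all 13443 genes tested in both, 2758 were called higher in both and 2818 lower in both, together 41.5%, and 0.357% in opposite directions. The 20 include Selp, which reached the limit on low values only through the group where it was high. These 20 were 83.3% of the members called in the Nlrp3 mutant and 69.0% of those called in the het mutant, against 74.5% and 73.6% over all genes.

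Libraries of 1 group differed in how far these genes moved. In the Nlrp3 mutant, library 2 was the lowest of the 3 for 17 of the 23 members called higher, and library 1 the highest for 18. The neutrophil marker sum was 15400, 9550 and 13200 FPKM in libraries 1, 2 and 3. For the het mutant, library 2 was highest for 22 of the 30 members called higher, and neutrophil markers summed to 13500, 20000 and 10400 FPKM in its libraries 1, 2 and 3. In the null mutant, library 3 was highest for 22 of 39 tested members and lowest for none, while its neutrophil marker sum of 3100 FPKM equalled that of library 1 to 3 digits. Total FPKM was 550400, 510900 and 527500 in Nlrp3 mutant libraries 1, 2 and 3. It was highest in library 2 of the het mutant (559200) and in library 3 of the null mutant (482100). The same order was not counted over all genes. The part of cell makeup or of library scaling in this order was not tested.

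**Figure D5:**
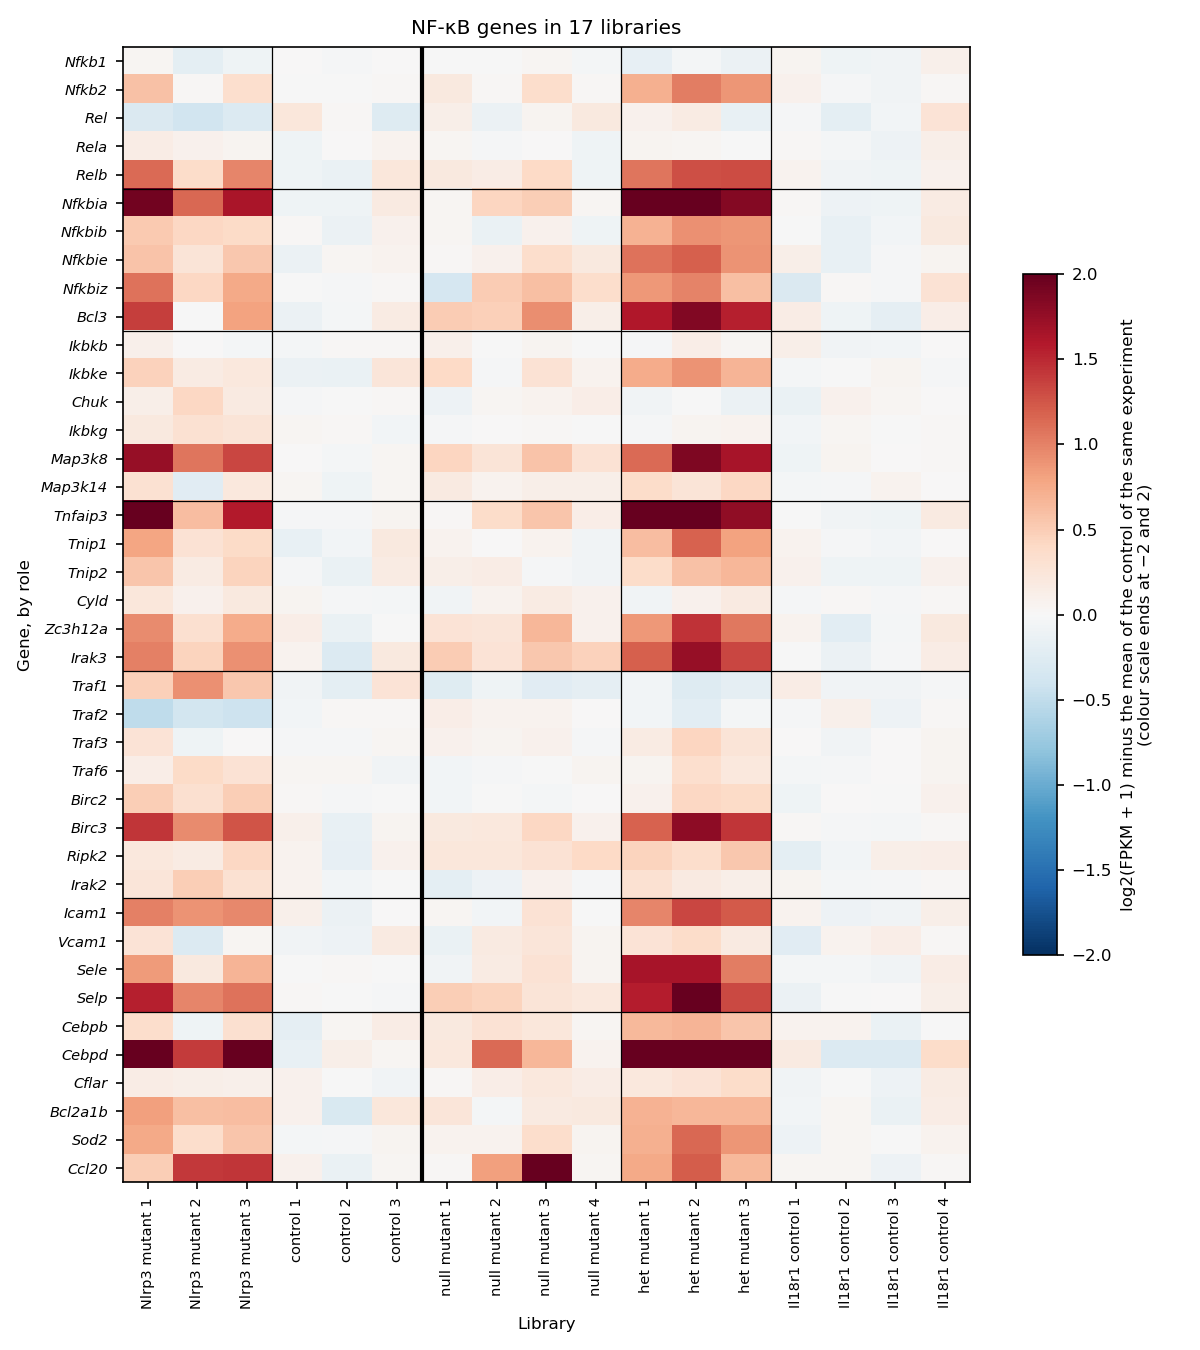
Log2(FPKM + 1) of the 40 members (rows, in blocks by role) in the 17 libraries (columns), each minus the mean of the control group of the same experiment; red is above and blue below that mean, and the colour scale ends at −2 and 2. Columns of the Nlrp3 and het mutants are red for Nfkbia, Tnfaip3, Map3k8, Birc3 and Cebpd, and those of the null mutant are paler, apart from Cebpd in library 2 and Ccl20 in libraries 2 and 3.

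The null mutant against Il18r1 control gave small positive values for most members, 31 of 39 being above 0, with the largest at 0.52 (SE 0.23, limma adjusted p = 0.478) for Cebpd and 0.5 (SE 0.15, limma adjusted p = 0.146) for Bcl3. A missed threshold does not show that levels were equal. By the authors' deposited table, 4 members passed, all higher, where 3.74% of genes passed, 3.02% higher and 0.719% lower. They were Irak3 (log2 fold change 0.65, adjusted p = 5.1e-05), Map3k8 (0.37, 0.00325), Selp (1.4, 0.00615) and Bcl3 (0.69, 0.00666). For the het mutant against Il18r1 control, the authors' deposited table called 31 of 40 members, all higher, where 46.2% of genes passed, 23.5% higher and 22.8% lower; these were the 30 limma calls and Ccl20. For the null against the het mutant, the authors' deposited table called 26 members lower and none higher, where 44.1% of genes passed, 22.3% lower and 21.8% higher, without Nfkbiz, Map3k14 and Traf2 and with Ripk2 (−0.3, adjusted p = 0.00808).

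Other genes of the pathway were counted in 3 further lists. Of 26 tested receptor and adaptor genes, 15 were higher and 1 was lower in the Nlrp3 mutant, 19 were higher and 1 lower in the het mutant, 2 were higher in the null mutant against Il18r1 control, and 16 were lower and 1 higher in the null against the het mutant. Of all genes tested, 28.0% were higher and 27.6% lower in the Nlrp3 mutant, and 27.3% and 28.9% in the het mutant. In the null mutant these shares were 1.87% and 0.102% against Il18r1 control, and 26.8% and 26.5% against the het mutant. Myd88, the shared adaptor of Toll-like, interleukin-1 and interleukin-18 receptors, averaged 45.1 FPKM in the Nlrp3 mutant and 25.4 FPKM in control (0.8, SE 0.065, limma adjusted p = 4.8e-05). It averaged 28.1 FPKM in the null mutant, 51.8 FPKM in the het mutant and 23.0 FPKM in Il18r1 control, and was 1 of the 2 called in the null mutant (0.28, limma adjusted p = 0.0469). The other was Tlr2, the receptor for bacterial lipoproteins, with means of 10.2 FPKM in the null mutant, 25.5 FPKM in the het mutant and 6.21 FPKM in Il18r1 control (0.63, limma adjusted p = 0.00318). Tnfrsf1a, the main TNF receptor, and Il1r1, the interleukin-1 receptor, rose by 0.62 and 0.89 in the Nlrp3 mutant and by 0.45 and 0.9 in the het mutant. Their changes in the null against the het mutant were −0.43 and −0.87. Traf5, an adaptor of TNF receptor family members, was the gene called lower, with log2 fold changes of −0.65 in the Nlrp3 mutant and −0.71 in the het mutant, and was the 1 called higher in the null against the het mutant, by 0.63.

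Genes of the kinase and ubiquitin machinery were called in each direction at shares near those of all genes in the het mutant (27.3% higher, 28.9% lower). Of 26 tested, 9 were higher and 4 lower in the Nlrp3 mutant, 7 higher and 7 lower in the het mutant, none passed in the null mutant against Il18r1 control by limma (1 at an unadjusted p under 0.05), and 5 were higher and 5 lower in the null against the het mutant. Commd1, which promotes the breakdown of RelA, averaged 84.9 FPKM in the Nlrp3 mutant and 122 FPKM in control (−0.52, SE 0.067, limma adjusted p = 4.2e-04). Tbk1, an IKK-related kinase, rose by 0.26 in the Nlrp3 mutant and by 0.3 in the het mutant.

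Further target genes held the largest changes. Of 39 tested in the first experiment, 22 were higher and 2 lower in the Nlrp3 mutant (median 0.44); of 41 tested in the second, 32 were higher and 3 lower in the het mutant (median 0.87), 6 were higher in the null mutant against Il18r1 control (median 0.18), and 27 were lower and 3 higher in the null against the het mutant (median −0.75). Over all genes the shares higher and lower were 28.0% and 27.6% in the Nlrp3 mutant, and 27.3% and 28.9% in the het mutant. For the null mutant they were 1.87% and 0.102% against Il18r1 control, and 26.8% and 26.5% against the het mutant. Saa3, an acute phase protein, averaged 2070 FPKM in the Nlrp3 mutant and 18.6 FPKM in control. It averaged 227 FPKM in the null mutant, 4110 FPKM in the het mutant and 9.20 FPKM in Il18r1 control, so that it passed also in the null mutant against Il18r1 control (4.47, SE 0.26, limma adjusted p = 1.8e-06). Cfb, complement factor B, and Mmp9, a neutrophil-rich gelatinase, behaved likewise, with log2 fold changes of 2.19 and 2.57 in the null mutant against Il18r1 control. Lcn2, a siderophore-binding protein, had 1.38 there and 3.14 in the Nlrp3 mutant. Csf1, the macrophage growth factor, and Gadd45b, a stress response gene, rose by 1.73 and 0.78 in the het mutant and had 0.23 and 0.1 in the null mutant against Il18r1 control, neither of which passed (limma adjusted p = 0.589 and 0.851).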

How the data were processed

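Lung RNA of 17 libraries was sequenced as stranded mRNA libraries with paired reads, per the labels' protocols. Per the submitters' processing notes, STAR was used with GRCm38 (mm10); no quantification tool is named in the sources used here. FPKM per gene and library came in 2 tables deposited by the authors. The unit is inferred from the values and column names, since the headers state none. Each table held 24354 lines, of which 27 with a gene name turned into a date were left out. Per the file headers, 3 further tables deposited by the authors hold a mean normalized count (a signal per gene), a log2 fold change with its SE, a Wald score and raw and adjusted p-values; their log2 fold changes ran in the stated direction, with the sign of the FPKM difference in 89.8% to 95.9% of genes. Summary lines without a gene, 18.5% and 19.1% of the mean count in the het and null tables against control, were left out.

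The test was limma 3.58.1 with trend, run in R 4.3.3 on log2(FPKM + 1) for genes that reached 1 FPKM in 3 libraries or more of their table, with 6 libraries in the first experiment and all 11 in the second, adjusted by Benjamini-Hochberg over all genes tested. Tables were taken as normalized separately. Alternatives were a pseudocount of 0.1, no filter, a mean of at least 5 FPKM, median-of-ratios and equal-total rescaling, replicate numbers as a block, a robust weighted fit, 2 groups only, a term for Xist, null libraries matched by sex-linked genes, a log2 fold of at least 1, the authors' tables and each library left out. Members and lists were chosen with earlier results of these data known. Values in all libraries are given for the subunits, Nfkbia, Tnfaip3 and the 10 passing members of largest change in the Nlrp3 mutant and in the null against the het mutant; those of Ccl20, Vcam1 and Traf2, and fold changes of other members, were added after their values were seen. Up to 4 genes of smallest p per further list could be named. Without total reads no counting interval was made. Motifs were searched with Python 3.11.15.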

Additional observations from a re-analysis of the deposited data

Results flagged for a closer look

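In the 75 sets of 4 libraries tested for 1 library far from the rest, 2 were marked, where chance marks about 1 in 20; both were null mutant library 3. Sod2 had 21.4 FPKM there, against 17.3 to 17.5 FPKM in the other 3 null mutant libraries. Ccl20 had 5.54 FPKM there, against 0.122 to 0.954 FPKM in the other 3.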

How the results depend on the processing

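The numbers of members passing, 24, 30, 0 and 28 in the Nlrp3 mutant, the het mutant, the null mutant against Il18r1 control and the null against the het mutant, were 20 to 26, 26 to 30, 0 to 1 and 22 to 28 with 1 library left out. With a log2 fold of at least 1 they were 6, 13, 0 and 10. These include Selp, and Sele in the second experiment, whose direction was fixed by the limit on low values. The share of all genes passing both limits was not counted. Passing or not, 1060 of 13663 genes had a log2 fold change past 1 in size in the het mutant. In the null mutant they were 127 of 13665 against Il18r1 control and 814 of 13663 against the het mutant. The count of 0 became 1 with a pseudocount of 0.1, at equal total FPKM and in the robust fit (Irak3 each time), 1 with a term for Xist or with null libraries matched by sex-linked genes (Bcl3), 2 with 2 groups only (Irak3 and Map3k8), and 4 in the authors' deposited table. It was 1 without het library 1 (Map3k8), het library 2 (Irak3) or null library 4 (Bcl3). The cause was not tested. Of the called members, 18 of 24, 22 of 30 and 21 of 28 passed in each alternative that tested them other than the fold limit, and none changed sign; Selp and Sele, among them, were not tested without a library of the group in which they were high.

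Replicate numbers did not pair the libraries: deviations of same-numbered libraries correlated between −0.101 and 0.269 across genes, and the labels name no shared litter or day. With the replicate block, 25, 29, 0 and 29 members passed.

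Members that did not pass changed sign in some alternative in 6 of 14, 5 of 9, 9 of 39 and 9 of 11 cases, and 9, 4, 3 and 5 of them passed in some alternative with the sign unchanged, beside Rela in the het mutant and Ikbkb, Ikbkg and Rela in the null against the het mutant, which passed with it changed at equal total FPKM. Of those given with a fold change, at equal total FPKM the log2 values were −0.065 (Rela) and −0.15 (Vcam1) in the Nlrp3 mutant, −0.084 (Rel) and −0.13 (Rela) in the het mutant, and 0.16 (Rela), 0.019 (Ripk2) and 0.012 (Vcam1) in the null against the het mutant. With 1 library left out, Vcam1 in the Nlrp3 mutant lay between −0.12 and 0.16, and Rel and Rela in the het mutant between −0.031 and 0.12 and between −0.006 and 0.065. Low members such as Rel, Selp, Sele and Ccl20 rest on few reads, and the depth behind each value is unknown.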
